A study of Mus musculus with 6 samples.

Results

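Chemokine receptors and formyl peptide receptors are the proteins with which macrophages sense where to go. The 8 receptor genes described here are *Ccr1*, *Ccr2*, *Ccr7*, *Ccrl2*, *Cx3cr1*, *Cxcr4*, *Fpr1* and *Fpr2*. They were chosen by symbol from the table of read counts, which lists 55453 genes, and all 8 were found and had enough counts to be tested. RNA-Seq was measured in 6 libraries of bone marrow-derived macrophages (BMDM), which are grown from mouse bone marrow with M-CSF or with medium from L929 fibroblasts. In 3 libraries, called PP2Ac KO, the marrow came from LysMcre PP2Ac fl/fl animals, and in the 3 called PP2Ac WT from wild-type animals, all of them C57BL/6. In the KO mice *cre* is driven by the Lysozyme 2 promoter and removes exon 1 of *Ppp2ca*, the gene of the PP2A catalytic subunit, in myeloid cells. The WT mice were bought separately and are not described as littermates or as carriers of *cre*, so genotype, *cre* and source colony cannot be told apart. The libraries were taken as treated with the STING agonist cGAMP, because the study's text describes its BMDM RNA-Seq in this way. Their labels give genotype and replicate number only, and do not say whether replicates are separate mice, so p-values measure the spread between these libraries. No untreated libraries were analysed here, and the values therefore compare genotypes and not a response to cGAMP.

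Most of these receptors are G protein-coupled receptors that signal through the Gi class of G proteins, turn a gradient of ligand into directed movement, and are then phosphorylated by GRK kinases and taken up with arrestins. CCR1 and CCR2 bind inflammatory CC chemokines, and CCR2 brings classical monocytes out of the bone marrow and into inflamed tissue. CCR7 guides mature dendritic cells to lymph nodes, CX3CR1 binds fractalkine and marks patrolling monocytes and many tissue macrophages, and CXCR4 binds CXCL12 and holds cells in the bone marrow. CCRL2 is an atypical receptor that binds chemerin without known signaling of its own, and FPR1 and FPR2 recognize formylated peptides from bacteria and mitochondria.

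The libraries held between 35257156 and 47390899 counts on genes. A count of 3, the limit that a count of 0 allows, corresponded to 0.0604 to 0.0908 CPM (counts scaled to library size with TMM factors), and covers counting error only. *Ppp2ca* itself had 33 to 47 counts in the KO libraries and 8279 to 10654 in the WT libraries. Of 7 macrophage markers, among them *Adgre1*, *Csf1r* and *Cd68*, all were tested, and their summed level was 7430.4 to 7627 CPM in KO and 6357 to 6967 CPM in WT. The TMM factors were 0.9098 to 0.9375 in KO and 1.049 to 1.097 in WT. The summed level of all genes was therefore also higher in KO, at 1066700 to 1099100 CPM against 911600 to 953470 CPM. All summed levels given here carry this shift. Of the macrophage markers, *Fcgr1* and *Mertk* were higher in KO (log2 fold changes 0.70 and 0.27), and *Csf1r* also passed when blocked on replicate number (0.18, adjusted p = 0.00280 from edgeR). All 5 monocyte markers reported were higher in KO, with a summed level of 227 to 277 CPM against 40.8 to 96.5 CPM, most of it from *Ms4a4c* (239.8 ± 25.5 CPM in KO and 57.3 ± 28.6 CPM in WT, SD, n = 3). All 4 fibroblast markers were lower in KO, with 22.7 to 33.4 CPM against 74.8 to 117.6 CPM. Of the neutrophil markers, *Ly6g* and *Retnlg* had 0 counts in every library.

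In PP2Ac KO BMDM, the formyl peptide receptors *Fpr1* and *Fpr2* and the atypical receptor *Ccrl2* rose, by 5.79-fold, 3.93-fold and 2.10-fold. The other 5 receptors did not pass the test at a false discovery rate (FDR) under 0.05. Among them were the 2 classical inflammatory receptors, *Ccr2* and *Ccr1*, with log2 fold changes of 0.33 and -0.29. *Cxcr4* and *Cx3cr1* had estimates near 0, and *Ccr7* was barely expressed. At FDR under 0.05, 3 of the 8 receptors were thus higher, against 18.1% of all 13680 genes tested, and 0 were lower, against 19.0% (quasi-likelihood test of edgeR, adjusted by Benjamini-Hochberg over all genes tested). At an unadjusted p under 0.05, 4 receptors were higher and 1, *Ccr1*, was lower. The share of all genes at this limit was not counted. It is no less than the 37.1% called in either direction at FDR under 0.05. The 2 counts are therefore not read as a result about the receptors. DESeq2 called 4 receptors higher and 0 lower, and among all genes 2583 higher and 2148 lower. With limma-voom, 3 receptors were higher and 0 lower, and among all genes 2485 and 2571. When same-numbered libraries were paired by a block in edgeR, 4 receptors were higher, with *Ccr2* as the added one, and 1, *Ccr1*, was lower, against 24.4% and 26.4% of all genes tested. These 3 receptors also passed the stricter rule used in the study, FDR under 0.01 with a log2 change beyond 1, which 3.36% of all genes tested passed as higher, 2.99% as lower and 6.35% in either direction. The median log2 fold change of the 8 was 0.29, and that of all genes tested was -0.02. In bulk libraries, a gene that is lower in fewer cells and one that is lower in each cell cannot be told apart, and the same holds for higher.

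**Figure D1:**
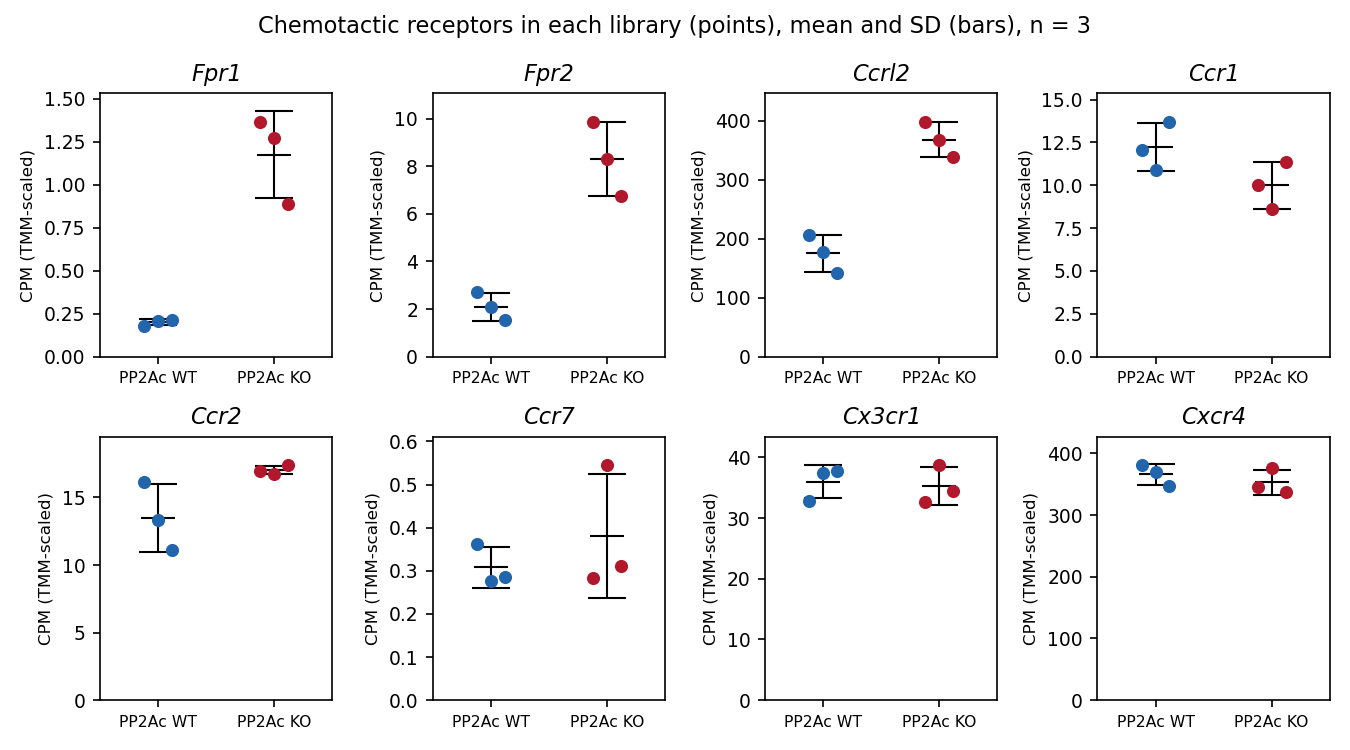
Level of each receptor gene in CPM (vertical axes, starting at 0, a scale of its own for each gene) in the 3 PP2Ac WT libraries (blue) and the 3 PP2Ac KO libraries (red). Points are libraries in the order of their replicate numbers, and bars are the mean and SD. The groups are apart for *Fpr1*, *Fpr2*, *Ccrl2* and *Ccr2*, and overlap for *Ccr1*, *Ccr7*, *Cx3cr1* and *Cxcr4*. Of all genes tested, 50.9% have groups that are apart, so this count is near the general share.

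*Fpr1* and *Fpr2* lie next to each other on chromosome 17 of the mouse build GRCm38 (mm10) and point away from each other. *Fpr1* runs on the reverse strand from 17876471 to 17883940, *Fpr2* on the forward strand from 17887824 to 17893952, and 3884 bases separate their starts. *Fpr1* had 1.37, 1.27 and 0.886 CPM in KO libraries 1, 2 and 3 and 0.181, 0.207 and 0.215 CPM in the WT libraries of the same numbers. These values rest on few reads, 58, 42 and 37 counts in KO and 9 in each WT library, but the lowest KO library lay far above the highest WT library. edgeR gave a log2 fold change of 2.53 ± 0.28 (standard error) with an adjusted p of 2.32e-04. *Fpr2*, the receptor with the broader range of ligands, which include lipoxin and serum amyloid A, had 9.87, 8.30 and 6.76 CPM in KO and 2.70, 2.07 and 1.53 CPM in WT, or 274 to 419 and 64 to 134 counts. Every KO library was above every WT library, and library 1 was the highest and library 3 the lowest in both genotypes. edgeR gave a log2 fold change of 1.97 ± 0.21 (standard error) with an adjusted p of 1.74e-04.

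The increase of *Fpr1* was not shown to differ from that of *Fpr2*. The ratio of *Fpr1* to *Fpr2* counts was 0.138, 0.153 and 0.131 in the KO libraries and 0.0672, 0.1 and 0.141 in the WT libraries, so that the groups overlapped (log2 difference 0.52, exact permutation test, two-sided, p = 0.3, adjusted over 2 ratios 0.3). With 3 libraries against 3, this test cannot give a p under 0.1. The KO library was above the WT library in 2 of 3 replicate numbers (exact test over sign flips of the 3 pairs, p = 0.5, where 0.25 is the smallest possible). The log2 difference was 0.25 without WT library 1 and 0.78 without WT library 3. No reads were counted for the other listed genes of the family. *Fpr3*, *Fpr-rs3*, *Fpr-rs4*, *Fpr-rs6* and *Fpr-rs7* had no count in any library. Of the 1295 windows of 50 bases in *Fpr2* transcripts, 28.4% also occur in the pseudogene *Gm5966* and 6.33% in *Fpr3*, so that reads from these stretches could have been split or left out. *Gm5966* had at most 2 counts in a library. *Fpr3* also overlaps 48 exon bases of *Fpr2* on the same strand. How shared reads were counted is not stated, so a count of 0 does not show that a gene was not expressed. *Fpr1* shared 1 of 1275 windows with *Fpr2*. Formyl peptide receptors are abundant in neutrophils, and of 10 neutrophil markers only *Csf3r* and *S100a8* had enough counts to be tested. *Csf3r*, which macrophages express too, was higher in KO (log2 fold change 0.58, adjusted p = 1.90e-04 from edgeR), *S100a8* had a log2 fold change of -0.02 (adjusted p = 0.953), and *Mpo* and *Elane* had at most 4 counts. The summed level of the 10 was 125 to 132.8 CPM in KO and 84.0 to 90.8 CPM in WT, nearly all of it *Csf3r* (127.8 ± 3.88 and 85.6 ± 3.83 CPM, SD, n = 3), and each of the other markers was under 1 CPM. *Fpr1* itself stood at 1.17 CPM in KO and 0.201 CPM in WT (means), so markers at such levels do not settle its source. The part of neutrophils was not tested. Nor was the part of monocytes, whose 5 markers rose together with *Fpr1* and *Fpr2*.

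The windows around the starts of the receptors that rose are shown because both formyl peptide receptors and *Ccrl2* moved in the same direction. Each holds the 250 bases before the start and the 50 after it, from RefSeq on GRCm38.p6, 5′ to 3′ on the gene's strand. Capitals mark a match to the kappaB consensus of NF-kB or to the GAS core TTCNNNGAA of STAT factors, searched on both strands.
Fpr1 (chr17:17883890-17884189, reverse strand): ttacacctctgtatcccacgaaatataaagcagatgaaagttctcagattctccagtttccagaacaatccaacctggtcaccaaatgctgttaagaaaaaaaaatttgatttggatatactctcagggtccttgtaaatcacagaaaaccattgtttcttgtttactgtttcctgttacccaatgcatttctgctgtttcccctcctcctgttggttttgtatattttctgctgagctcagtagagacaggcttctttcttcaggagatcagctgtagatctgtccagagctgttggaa
Fpr2 (chr17:17887574-17887873, forward strand): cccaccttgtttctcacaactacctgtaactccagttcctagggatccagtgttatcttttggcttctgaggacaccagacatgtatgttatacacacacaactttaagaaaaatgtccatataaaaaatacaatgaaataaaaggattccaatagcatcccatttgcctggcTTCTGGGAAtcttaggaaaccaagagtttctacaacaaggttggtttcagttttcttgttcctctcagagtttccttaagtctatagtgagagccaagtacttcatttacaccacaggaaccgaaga
Ccrl2 (chr9:111057469-111057768, reverse strand): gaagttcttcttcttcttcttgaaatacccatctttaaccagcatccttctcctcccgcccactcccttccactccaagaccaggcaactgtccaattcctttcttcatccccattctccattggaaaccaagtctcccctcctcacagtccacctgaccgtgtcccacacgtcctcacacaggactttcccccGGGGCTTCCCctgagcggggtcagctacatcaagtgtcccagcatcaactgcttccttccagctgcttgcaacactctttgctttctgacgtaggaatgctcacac
The *Fpr2* window held 1 GAS match, TTCTGGGAA, centred 72 bases before the start, and the *Ccrl2* window shown 1 kappaB match, GGGGCTTCCC, centred 51 bases before it. RefSeq gives 3 windows for *Ccrl2*, and the other 2 held no match to any of the motifs. Windows were found for 7 of the 8 receptors. Among these, *Ccr1*, which did not rise, also held a kappaB match, GGGAGGCTCC, centred 69 bases before its start. The ISRE core of interferon-stimulated genes was found in none of the 9 windows of the 7 receptors. Of all 32851 promoter windows of this length, 8.46% held a kappaB match, 8.3% a GAS match and 3.44% an ISRE match. Among the 12818 windows of genes tested here, the shares were 10.5%, 6.72% and 3.4%. A match describes the letters and is not a measured binding site.

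*Ccrl2*, on chromosome 9 from 111054486 to 111057519 on the reverse strand, had 398.5, 367 and 339 CPM in the KO libraries and 206, 177 and 142 CPM in the WT libraries. The lowest KO library was above the highest WT library by far more than the spread within a genotype. edgeR gave a log2 fold change of 1.07 ± 0.13 (standard error) with an adjusted p of 2.90e-04. It stayed above the strict limit of 1 in 5 of the 6 fits that left out 1 library, and was 0.94 without WT library 3. CCRL2 presents chemerin, the product of *Rarres2*, to the signaling receptor CMKLR1 on neighboring cells. *Cmklr1* rose as well, from 35.9 ± 5.11 to 57.7 ± 9.0 CPM (SD, n = 3), which edgeR put at 0.68 ± 0.13 in log2 fold change (standard error, adjusted p = 0.00312). *Rarres2* had 0 to 11 counts per library and was not tested.

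*Ccr2* and *Ccr1* lie in the CC chemokine receptor cluster of chromosome 9. *Ccr2* runs on the forward strand from 124101950 to 124113557 and *Ccr1* on the reverse strand from 123962124 to 123968692. *Ccr2* had 17.0, 16.7 and 17.4 CPM in the KO libraries and 16.1, 13.3 and 11.1 CPM in the WT libraries. The groups did not overlap, as in 50.9% of all genes tested, but WT library 1 came close to the KO libraries. The log2 fold change was 0.33 (standard error 0.12, 95% interval 0.06 to 0.60, adjusted p = 0.0563 from edgeR). With the replicate number as a block it was 0.34 and passed the test (adjusted p = 0.0107 from edgeR), as it did without WT library 1 (0.48, adjusted p = 0.00318). The 5 monocyte markers reported were higher in KO, with log2 fold changes from 0.35 for *F13a1* to 2.48 for *Plac8*. *Ly6c2* and *Chil3* (1.38 and 1.46) had at most 36 counts in a library, and *F13a1* had 246 to 343. The part of monocytes in the difference of *Ccr2* was not tested.

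*Ccr1* had 10.01, 8.63 and 11.3 CPM in KO and 12.03, 10.9 and 13.7 CPM in WT. The groups overlapped, but for each replicate number the KO library was below the WT library. The log2 fold change was -0.29 (standard error 0.12, 95% interval -0.55 to -0.02, adjusted p = 0.0902 from edgeR), but blocking on replicate number made *Ccr1* pass as lower (-0.29, adjusted p = 0.00356 from edgeR). Between *Ccr1* and *Ccr2* lies *Ccr3*, which was lower in KO with a log2 fold change of -0.65 (adjusted p = 0.0275 from edgeR). *Ccr1l1*, between *Ccr1* and *Ccr3*, had at most 8 counts. Of the 6758 windows of 50 bases in *Ccr2* transcripts, 1.91% also occur in other genes.

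*Cxcr4* and *Cx3cr1* showed no difference larger than the spread between libraries. *Cxcr4*, on chromosome 1 from 128588199 to 128592293 on the reverse strand, had 345, 376 and 338 CPM in KO and 381, 370.5 and 347 CPM in WT. The groups overlapped, and edgeR estimated a difference of -0.05 ± 0.07 on the log2 scale (standard error, adjusted p = 0.596) with a 95% interval of -0.21 to 0.11. *Cx3cr1*, on chromosome 9 from 119901616 to 120069879 on the reverse strand, had 32.6, 38.7 and 34.5 CPM in KO and 32.8, 37.4 and 37.7 CPM in WT. Its groups overlapped as well, with an estimate of -0.03 (standard error 0.08, 95% interval -0.22 to 0.16, adjusted p = 0.800 from edgeR). In both genotypes library 1 had the lowest *Cx3cr1*. An overlapping antisense gene, *Gm33858*, covers 1.73% of the exon bases of *Cx3cr1* and had at most 17 counts. The ratio of *Ccr2* to *Cx3cr1* counts, receptors that part classical from patrolling monocytes, was 0.521, 0.433 and 0.5045 in KO and 0.491, 0.355 and 0.295 in WT. The groups overlapped, with WT library 1 above KO library 2 (log2 difference 0.38, exact permutation test, two-sided, p = 0.2, adjusted over 2 ratios 0.3). Within replicate numbers KO was above WT in 3 of 3 pairs, for which the exact test over sign flips gave its smallest possible p of 0.25. The log2 difference was 0.21 without WT library 3 and 0.58 without WT library 1.

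*Ccr7*, on chromosome 11 from 99144196 to 99155077 on the reverse strand, was detected at 12, 18 and 13 counts in KO and 18, 12 and 12 counts in WT, or 0.283, 0.545 and 0.311 CPM and 0.362, 0.276 and 0.286 CPM. The groups overlapped. The estimate of 0.26 on the log2 scale (standard error 0.34, edgeR adjusted p = 0.596) had a 95% interval of -0.52 to 1.03, so that at this depth a doubling or a decrease by up to 0.52 on the log2 scale could not be told from no difference. Without KO library 2 the estimate was -0.06. Dendritic cell markers were few and mixed. Of 10, 6 were tested, *Clec9a* was higher (log2 fold change 1.25), and *Itgax* and *Fscn1* were lower (-0.69 and -1.19). Their summed level was 71.8 to 78.0 CPM in KO and 109 to 122 CPM in WT. Nearly all of it was *Itgax* (68.4 ± 2.64 CPM in KO and 110.2 ± 6.44 CPM in WT, SD, n = 3). The part of dendritic cells was not tested.

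**Figure D2:**
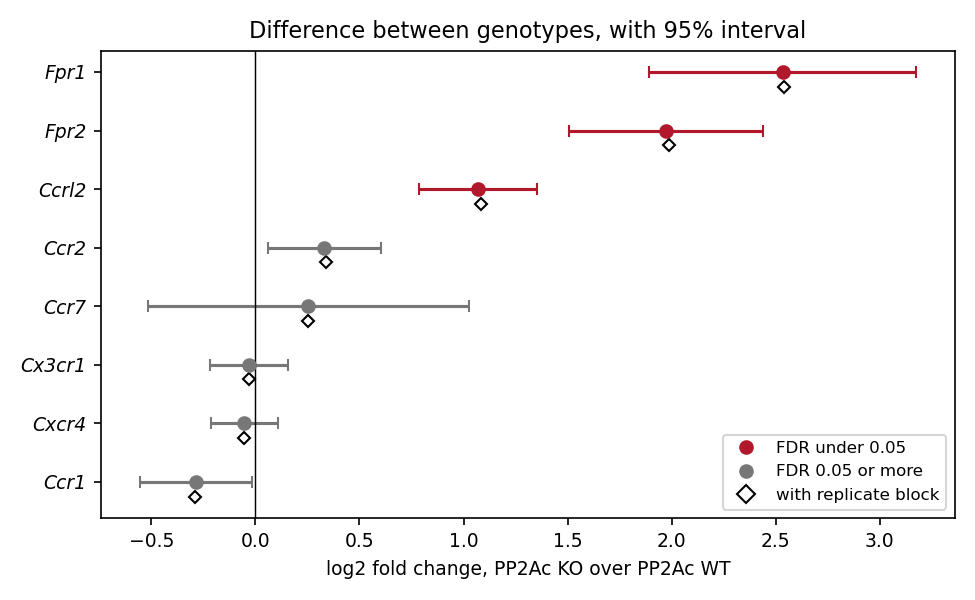
Log2 fold change of PP2Ac KO over PP2Ac WT (horizontal axis) for each receptor gene, with 95% intervals. Red points passed FDR under 0.05, grey points did not, and open diamonds give the estimate with the replicate number as a block. *Fpr1*, *Fpr2* and *Ccrl2* stand at 2.53, 1.97 and 1.07, and the other receptors lie between -0.29 and 0.33.

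Levels of different genes were compared per length, as CPM per kb of exons. *Cxcr4* was the most abundant in both genotypes, with 195 ± 11.1 CPM per kb in KO and 202.5 ± 9.60 CPM per kb in WT (SD, n = 3). *Ccrl2* followed, at 141.7 ± 11.5 and 67.4 ± 12.2 CPM per kb, and its distance to *Cxcr4* was 3.002-fold in WT and 1.38-fold in KO. *Cx3cr1* came next in both genotypes, at 7.82 ± 0.697 and 7.99 ± 0.607 CPM per kb. Below it the order of the means differed between genotypes. In WT, *Ccr1* (4.31 ± 0.496 CPM per kb) was above *Ccr2* (2.00 ± 0.371) and *Fpr2* (1.62 ± 0.452), and *Ccr7* (0.156 ± 0.0238) and *Fpr1* (0.152 ± 0.0132) were last. In KO, *Fpr2* (6.41 ± 1.20 CPM per kb) stood above *Ccr1* (3.53 ± 0.477) and *Ccr2* (2.52 ± 0.0486), and *Fpr1* (0.887 ± 0.192) above *Ccr7* (0.192 ± 0.0727). The neighbors *Ccr2* and *Fpr2*, and *Ccr7* and *Fpr1*, differed by less than their SD in WT, and all other neighbors by more than it. With the length of the longest transcript in place of all exons, the order was the same. In KO, however, *Cx3cr1* (7.84 ± 0.699 CPM per kb) and *Fpr2* (7.33 ± 1.38) then differed by less than their SD.

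**Figure D3:**
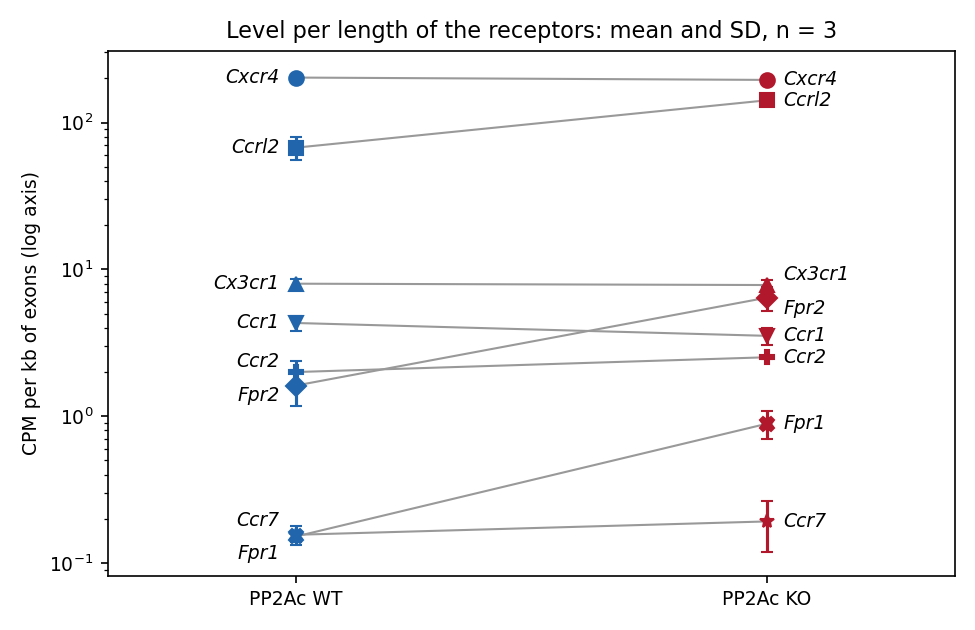
Mean level of the 8 receptor genes in CPM per kb of exons (vertical log axis) in PP2Ac WT and PP2Ac KO, with SD as error bars (n = 3) and lines joining the same gene. *Fpr2* passes *Ccr1* and *Ccr2*, *Fpr1* moves away from *Ccr7*, and *Ccrl2* approaches *Cxcr4*.

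Of 30 other receptors of chemoattractants reported, 9 were tested. Among these 2 were higher and 2 lower, near the shares of all genes tested (18.1% and 19.0%), and the median change on the log2 scale was -0.10. Besides *Cmklr1*, *C3ar1*, the receptor of the complement peptide C3a, rose from 1766 ± 123 to 2261 ± 101 CPM (SD, n = 3), which edgeR put at 0.36 ± 0.08 in log2 fold change (standard error, adjusted p = 0.00651). *Ackr3*, a scavenging receptor of CXCL12, fell from 0.866 ± 0.363 to 0.269 ± 0.151 CPM, a log2 fold change of -1.71 (adjusted p = 0.0174 from edgeR) on 22 to 62 and 4 to 16 counts. *Ccr3* was the other lower gene. The count of lower genes was 1 in place of 2 without WT library 2 or without any 1 of the KO libraries. With the replicate number as a block, 3 were higher and 4 lower, where 24.4% and 26.4% of all genes tested were. The added higher gene was *Ptafr* (0.13 with the block, adjusted p = 0.0302 from edgeR). The added lower genes were the C5a receptors *C5ar1* and *C5ar2*. Their log2 fold changes were -0.14 and -0.19 with the block (adjusted p = 0.0264 and 0.0294 from edgeR) and -0.15 and -0.19 without it. The neutrophil receptor *Cxcr2* had at most 3 counts.

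Of 15 genes of the receptors' ligands, 11 were tested, 7 were higher and 1 lower, against 18.1% and 19.0% of all genes tested, and the median log2 fold change was 0.81. The CCR2 ligands *Ccl12*, *Ccl2* and *Ccl7* rose by 1.75, 0.92 and 0.81 on the log2 scale (adjusted p = 6.16e-05, 1.90e-04 and 0.00172 from edgeR). The CCR1 ligands *Ccl3*, *Ccl5* and *Ccl9* rose by 1.41, 1.25 and 0.42 (adjusted p = 7.41e-05, 1.69e-04 and 0.00677 from edgeR), while *Ccl6* had -0.15 (adjusted p = 0.144) and passed as lower when blocked on replicate number (-0.15, adjusted p = 0.0214). *Ccl5* stood at 592 ± 81.2 CPM in KO and 249.5 ± 39.7 CPM in WT (SD, n = 3). *Saa3*, which encodes a serum amyloid A protein, rose from 0.704 ± 0.198 to 2.09 ± 0.844 CPM, a log2 fold change of 1.54 (adjusted p = 0.00610 from edgeR). *Anxa1*, whose product annexin A1 binds formyl peptide receptors, was abundant and had a log2 fold change of -0.12 (95% interval -0.27 to 0.04, adjusted p = 0.211). *Cx3cl1*, the fractalkine gene, had 0.03 (95% interval -0.21 to 0.27, adjusted p = 0.834). *Cxcl12*, the ligand of CXCR4, was the lower gene, with 0.766 ± 0.197 CPM in KO and 1.70 ± 0.359 CPM in WT and a log2 fold change of -1.17 (adjusted p = 0.00536 from edgeR). The fibroblast markers *Col1a1*, *Col1a2*, *Col3a1* and *Dcn* were lower in the same libraries (median -2.004 on the log2 scale), and their part in the decrease of *Cxcl12* and *Ackr3* was not tested. *Ccl19*, a CCR7 ligand, had no count in any library.

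Among 26 genes for the G proteins, kinases, arrestins and regulators that act behind these receptors, all were tested, 7 were higher and 4 lower, against 18.1% and 19.0% of all genes tested, and the median change on the log2 scale was 0.12. With the replicate number as a block, 12 were higher and 6 lower, where 24.4% and 26.4% of all genes tested were. Of the Gi subunit genes, *Gnai2* had a log2 fold change of 0.06 (adjusted p = 0.527) and *Gnai3* one of 0.00 (adjusted p = 0.993). Of the RGS genes, whose products switch Gi proteins off, *Rgs14*, *Rgs1* and *Rgs18* rose by 0.996, 0.85 and 0.38 on the log2 scale (adjusted p = 1.86e-04, 7.99e-04 and 0.0126 from edgeR), and *Rgs16* had -0.83 (adjusted p = 0.0107). Of the receptor kinases, *Grk3* rose by 0.76 (adjusted p = 5.15e-04 from edgeR), and *Grk6* and *Grk5* were lower with log2 fold changes of -0.30 and -0.28 (adjusted p = 0.0109 and 0.0395). *Arrb1*, which encodes an arrestin, fell from 141 ± 11.2 to 101 ± 4.98 CPM (SD, n = 3), or by 0.48 on the log2 scale (adjusted p = 0.00122 from edgeR), and *Arrb2* had 0.04 (adjusted p = 0.639). *Plcb2*, a phospholipase activated by G proteins, rose by 0.28 (adjusted p = 0.00415 from edgeR). Without WT library 2, 2 genes of this list were lower in place of 4.

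**Figure D4:**
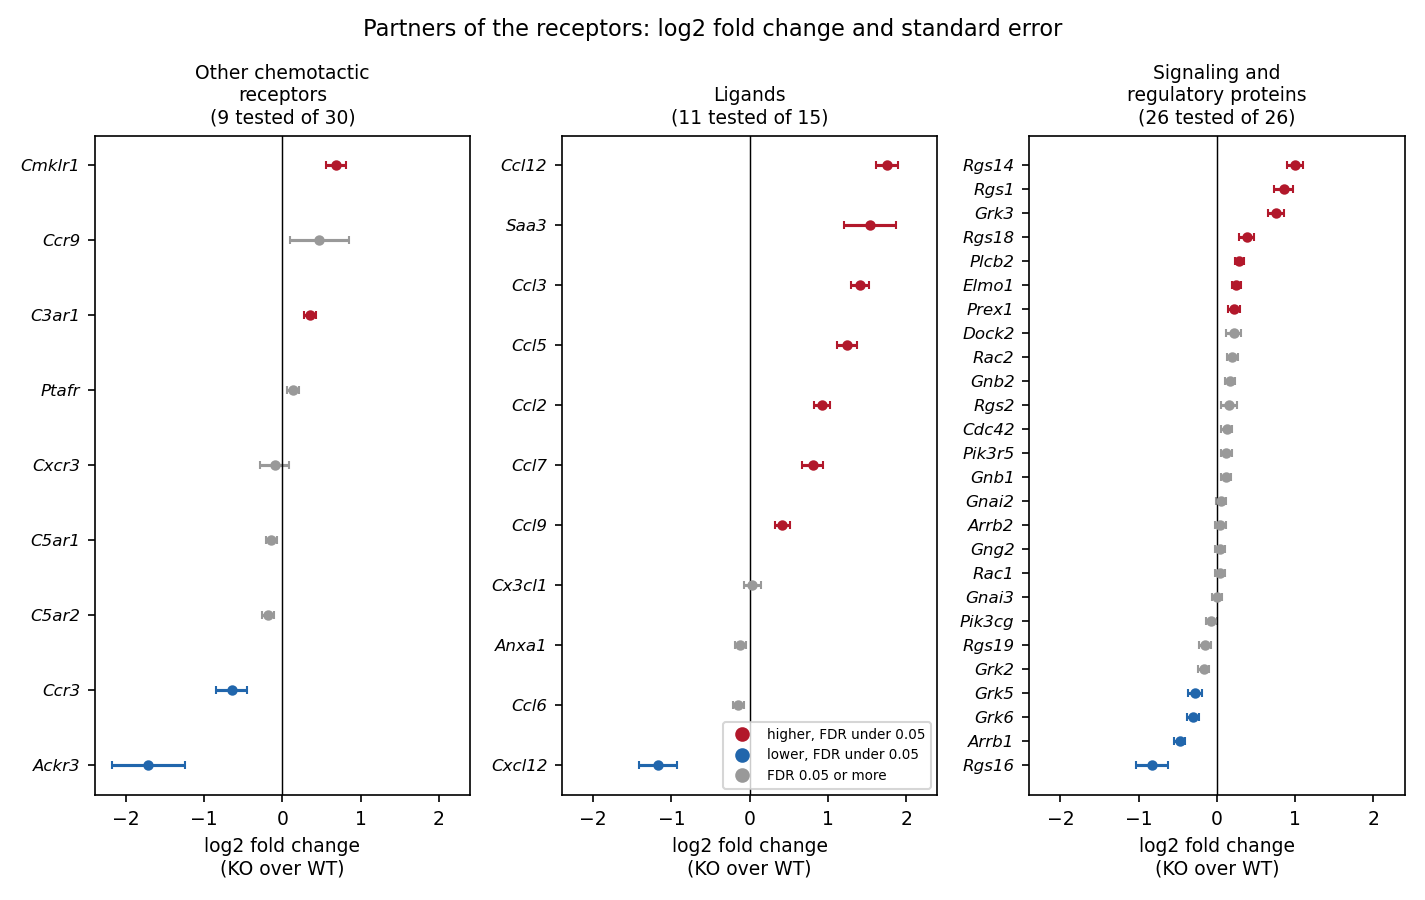
Log2 fold change of PP2Ac KO over PP2Ac WT (horizontal axes) with its standard error for the tested genes of the other chemotactic receptors, the ligands and the signaling proteins. Red and blue points were higher and lower at FDR under 0.05 and grey points did not pass. Higher genes number 2 of 9, 7 of 11 and 7 of 26.

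The genes whose profile over the 6 libraries lay closest to those of the formyl peptide receptors were found by the root mean square difference of log2(CPM + 0.5), each gene centred on its mean. For *Fpr2* these were *Pou3f1*, *Adora2b* and *A330040F15Rik*, with differences of 0.0631, 0.0655 and 0.0808. *Adora2b*, which encodes an adenosine receptor, had 11.7 ± 2.39 CPM in KO and 3.16 ± 1.05 CPM in WT (SD, n = 3). For *Fpr1* they were *Capn11*, *Rab20* and *Gpr18*, with 0.0896, 0.1003 and 0.1033. The orphan receptor gene *Gpr18* had 2.38 ± 0.460 CPM in KO and 0.753 ± 0.104 CPM in WT, and *Capn11* had 28 to 39 counts in KO and 0 in WT. The fitted log2 fold changes were 8.10 for *Capn11*, 1.66 for *Gpr18* and 1.16 for *Rab20*, against 2.53 for *Fpr1*. The added 0.5 CPM lowers the differences of genes with few counts such as *Fpr1* and *Capn11*. The 6 libraries also share the split by genotype.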

How the data were processed

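Gene expression was measured by poly(A) RNA-Seq in 6 BMDM libraries, 3 PP2Ac KO and 3 PP2Ac WT. The authors deposited 1 table of read counts per gene symbol, as whole numbers without normalization, on mm10. The submitters' processing notes name fastp 0.20.0, kallisto 0.46.1, STAR 2.7.1a, HTSeq 0.11.2, edgeR 3.34.0 and limma 3.48.3 without saying what each did, and the annotation release and strand setting are not given in the sources used here. Positions and exon lengths are from GENCODE M21 on GRCm38, which holds 98.4% of the symbols.

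The test used edgeR 4.0.16 under R 4.3.3. filterByExpr chose the genes (minimum count 10, minimum total 15), which were scaled by TMM and tested for genotype alone with glmQLFit and glmQLFTest, with Benjamini-Hochberg adjustment over 13680 genes. Standard errors are the log2 fold change divided by the square root of F. Genes with an FDR under 0.05 were called, and the study's limits (log2 fold change over 1, FDR under 0.01) were applied besides. Replicate numbers 1, 2 and 3 occur in both genotypes in the labels. Deviations of same-numbered libraries from their group means correlated across genes at 0.289, 0.148 and 0.337. Libraries of different numbers were not compared in this way, so these values do not show that the numbers pair the libraries. The block is therefore an alternative to the main test. Its values are given where they change the call of a gene named in the text. Alternatives were scaling by upper quartiles or by RLE, no filter, DESeq2 1.42.0, limma-voom (limma 3.58.1), the block, and each library left out. A test of the ratios paired by number was added after the data were seen.

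The receptors and all lists were chosen with earlier results of these data known. Besides the 8 receptors, the rule named up to 8 called genes per list by size of change, the main ligands, and the 3 genes closest in profile to the 2 receptors with the largest change. *Ccl6*, *Ccr1l1*, *Cxcr2*, *C5ar1*, *C5ar2*, *Ptafr*, *Grk5*, *Gnai2*, *Gnai3*, *Arrb2* and the *Fpr* genes without counts were named after their values were seen. Of the T, NK and B cell markers, the summed levels were at most 0.212 CPM for T and NK cells and 2.11 CPM for B cells. One listed receptor and 1 listed monocyte marker are not reported here and were left out of the counts and sums of their lists.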

Additional observations from a re-analysis of the deposited data

How the results depend on the processing

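*Fpr1*, *Fpr2* and *Ccrl2* were higher at FDR under 0.05 in every alternative run, with log2 fold changes without 1 library of 2.39 to 2.71, 1.80 to 2.21 and 0.94 to 1.20. *Ccr1* passed as lower with upper-quartile scaling (-0.35), without a filter (-0.29) and when blocked on replicate number (-0.29). *Ccr2* passed as higher with RLE scaling (0.35), without a filter (0.32), with DESeq2 (0.36) and with the block (0.34), and ranged from 0.21 to 0.48 when 1 library was left out. The block changed no other receptor's call. Leaving out 1 library moved *Ccr7* between -0.06 and 0.43 and *Cx3cr1* between -0.10 and 0.02, where the sign turned without KO library 2 for *Ccr7* (-0.059) and without KO library 1 (0.016) or WT library 3 (0.0048) for *Cx3cr1*. The cause was not tested in these cases.

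Lower genes among other receptors numbered 4 with upper-quartile scaling, 4 with the block and 1 to 2 without 1 library. Lower ligand genes numbered 2 with upper-quartile scaling and 2 with the block. Higher signaling genes numbered 12 with the block, and lower ones 2 to 4 without 1 library. The whole table moved as well. Lower genes among all genes numbered 2604 in the main test, 3356 with upper-quartile scaling and 3615 with the block. Without 1 library they numbered 1873 to 2720. Higher genes among all genes numbered 2470 in the main test and 3343 with the block. Of all genes called, 48.7% were higher, and 38.4% with upper-quartile scaling, which put the median log2 value of all genes tested at -0.09. Leaving out 1 library moved the log2 difference of the *Fpr1* to *Fpr2* ratio between 0.25 and 0.78 and that of *Ccr2* to *Cx3cr1* between 0.21 and 0.58. Depth limits *Ccr7* and *Fpr1*, which had at most 18 and 58 counts in a library.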
